A study of Mus musculus with 4 samples.

Results

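The cytosolic ribosomal protein genes are the genes for the protein parts of the ribosome, and their mRNAs were compared between tissue at collagen-coated, PMB-coated and non-coated porous polyethylene scaffolds. The rule for the members reads the gene symbol and no measured value. It takes the genes whose symbol starts with Rpl or Rps and a digit, with Rplp0, Rplp1, Rplp2 and Rpsa added and 6 genes of the Rps6k kinases and 1 pseudogene symbol left out. The rule found 77 of the 19087 named genes of the array, and 75 of them had a value on all 4 arrays, out of 11842 named genes that did. The labels of the scaffolds call PMB, poly(MPC-co-n-butyl methacrylate), "MPC". It is a phospholipid-like polymer used as a bio-inert coating, whereas collagen served as a bioactive one.

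Male C57BL/6 mice, 8 weeks of age, carried the scaffolds subcutaneously on the back for 7 days. The methods give n = 1 mouse for the arrays and do not state whether each kind of scaffold had its own animal. The tissue beside and inside the scaffold was cut out by laser, so each of the 3 RNA extracts mixed many cell types. Each array received a coated and the non-coated extract together, 825 ng of labelled aRNA each, with the coated sample in Cy5 on replicate 1 and in Cy3 on replicate 2. Both arrays of a coating therefore repeat one pair of extracts with the dyes exchanged, and they were counted as 1 sample. No test between scaffolds could be made, no p-value is given, and ± gives the SD between both arrays, which holds technical error alone. All values are log2 ratios of a coated scaffold to the non-coated one, or of collagen to PMB where "collagen over PMB" is written. The non-coated extract stands in both coated ratios and drops out of the third.

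A ribosome joins a small subunit, which reads the mRNA, to a large subunit, which forms the peptide bond. Most of its proteins are made in equal numbers and in step with ribosomal RNA, so cells that grow, divide or secrete much protein carry much ribosomal protein mRNA. These mRNAs start with a C and a run of pyrimidines, the terminal oligopyrimidine or TOP tract, through which mTOR and the RNA-binding protein LARP1 control their translation.

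The start sites of genes at both ends of the order by collagen over PMB are shown, because the TOP tract is the one sequence feature that these genes are known to share. For the 6 highest and 6 lowest standard subunit genes with a RefSeq start window, each line gives 20 bases before and 20 bases from the annotated start, 5′ to 3′ on the gene's strand, from RefSeq on build GRCm38.p6. Capitals mark a C followed by at least 4 pyrimidines that begins within 5 bases of that start. Where a gene had several annotated starts, one with a tract was shown if there was one. The high end comes first, then the low end.
Rpl4: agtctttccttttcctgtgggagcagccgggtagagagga
Rplp0: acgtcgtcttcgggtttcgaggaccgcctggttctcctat
Rps2: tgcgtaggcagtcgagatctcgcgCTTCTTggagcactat
Rps9: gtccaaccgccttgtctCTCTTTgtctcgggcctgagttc
Rpl13a: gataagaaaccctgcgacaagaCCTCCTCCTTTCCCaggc
Rpl19: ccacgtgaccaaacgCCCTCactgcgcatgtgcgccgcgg
Rps4x: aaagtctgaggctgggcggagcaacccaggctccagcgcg
Rps12: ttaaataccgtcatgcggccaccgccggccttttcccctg
Rpl38: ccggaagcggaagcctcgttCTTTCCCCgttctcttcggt
Rpl27a: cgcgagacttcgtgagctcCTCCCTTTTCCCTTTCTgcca
Rpl22: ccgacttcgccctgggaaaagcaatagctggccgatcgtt
Rplp2: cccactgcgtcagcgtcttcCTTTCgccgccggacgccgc
In the order printed, the windows lie at chr9:64173367-64173406 on the plus strand, chr5:115559447-115559486 plus, chr17:24720043-24720082 plus, chr7:3704021-3704060 plus, chr7:45128726-45128765 minus, chr11:98026690-98026729 plus, chrX:102189372-102189411 minus, chr10:23787190-23787229 minus, chr11:114668560-114668599 plus, chr7:109519175-109519214 plus, chr4:152325706-152325745 plus and chr7:141447631-141447670 plus. Each spans the end of the promoter and the first bases of the first exon. A tract was present at both ends of the order.

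Over all standard ribosomal proteins with a start window, 13 of 56 (23.2%) had the tract at the annotated first base, against 3.01% of 27025 genes. Within 5 bases of the start it was found in 26 of 56 (46.4%), against 21.2% of all genes. The collagen over PMB ratio had a median of 0.33 in the 26 genes with the tract and of 0.26 in the 30 without it. The ranges overlapped, from -0.16 to 0.78 and from -0.23 to 1.05, and the set without the tract reached farther at both ends. A match describes the letters only, a run that began farther from the start was not counted, and annotated starts can be off by some bases.

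The ribosomal protein genes were somewhat higher at the collagen-coated scaffold than at the non-coated one, and somewhat lower at the PMB-coated scaffold. The median log2 ratio of the 75 genes was 0.16 for collagen and -0.13 for PMB, while the medians of all 11842 genes were 0.036 and 0.022. Collagen over PMB had a median of 0.29, or 1.23-fold, against 0.0012 for all genes. The ribosomal protein genes formed a narrow group, since the SD over genes was 0.155 for collagen and 0.229 for PMB. Over all genes the SD was 0.516 for collagen and 0.382 for PMB, so the members were narrower mainly with collagen. This was not particular to them, since the mitochondrial ribosomal protein genes described below had SDs of 0.173 and 0.262. With PMB, the list of abundant mRNAs outside the ribosome had 0.227, but with collagen it had 0.345.

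**Figure D1:**
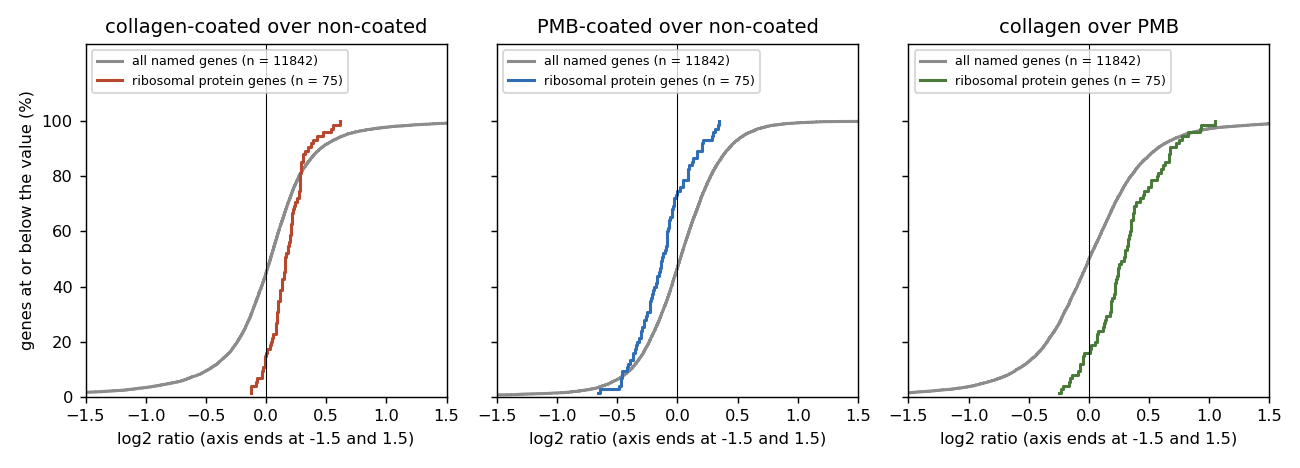
The share of genes (vertical axis, %) at or below each log2 ratio (horizontal axis) is drawn for all 11842 named genes in grey and for the 75 ribosomal protein genes in colour, in 3 panels for collagen over non-coated, PMB over non-coated and collagen over PMB. The coloured curve is steeper than the grey one, and its middle lies right of it for collagen (0.16), left of it for PMB (-0.13) and right of it for collagen over PMB (0.29).

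Changes of 2-fold were nearly absent. With collagen, no ribosomal protein gene differed by 2-fold or more in either direction, against a background of 2.21% and 3.38% of all genes, and none with PMB, against 0.616% and 1.40%. Between the coatings, 1 gene, Rpl4, was at least 2-fold higher with collagen (background 2.74%) and none was lower (3.67%). A gene was counted only when its mean passed the fold with the same sign on both arrays.

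The members differed from the background more in smaller, one-sided differences. A second, lower threshold was a level higher by 25% or more, a log2 ratio of 0.32, or lower by the same factor. In collagen over PMB, 34 genes (45.3%) were higher by this threshold, against 21.6% of all genes, and none was lower, against 21.6%. On both arrays 57 genes (76.0%) lay above 0 in this comparison and 9 (12.0%) below it, where the background was 42.0% and 40.8%. For PMB over non-coated, 15 of the 75 genes were lower by this threshold and 2 were higher, against 13.1% and 16.1%. Below 0 on both PMB arrays were 37 genes (49.3%) and above 0 were 9, against 33.6% and 38.8%. For collagen over non-coated, 9 genes (12.0%) were higher by 25% or more, a smaller share than the 16.5% of all genes, and none was lower, against 15.0%. Above 0 on both collagen arrays were 42 genes (56.0%) and below 0 were 2, against 39.9% and 32.0%. With collagen the members thus differed from other genes in sign more than in size.

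Against the common non-coated extract, 26 of the 75 genes (34.7%) were above 0 on both collagen arrays and below 0 on both PMB arrays, which 12.4% of all genes were. The reverse was seen in 0 members and in 11.4% of all genes. Both coated ratios hold the same non-coated extract, so these shares are not separate pieces of evidence for the 2 coatings.

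**Figure D2:**
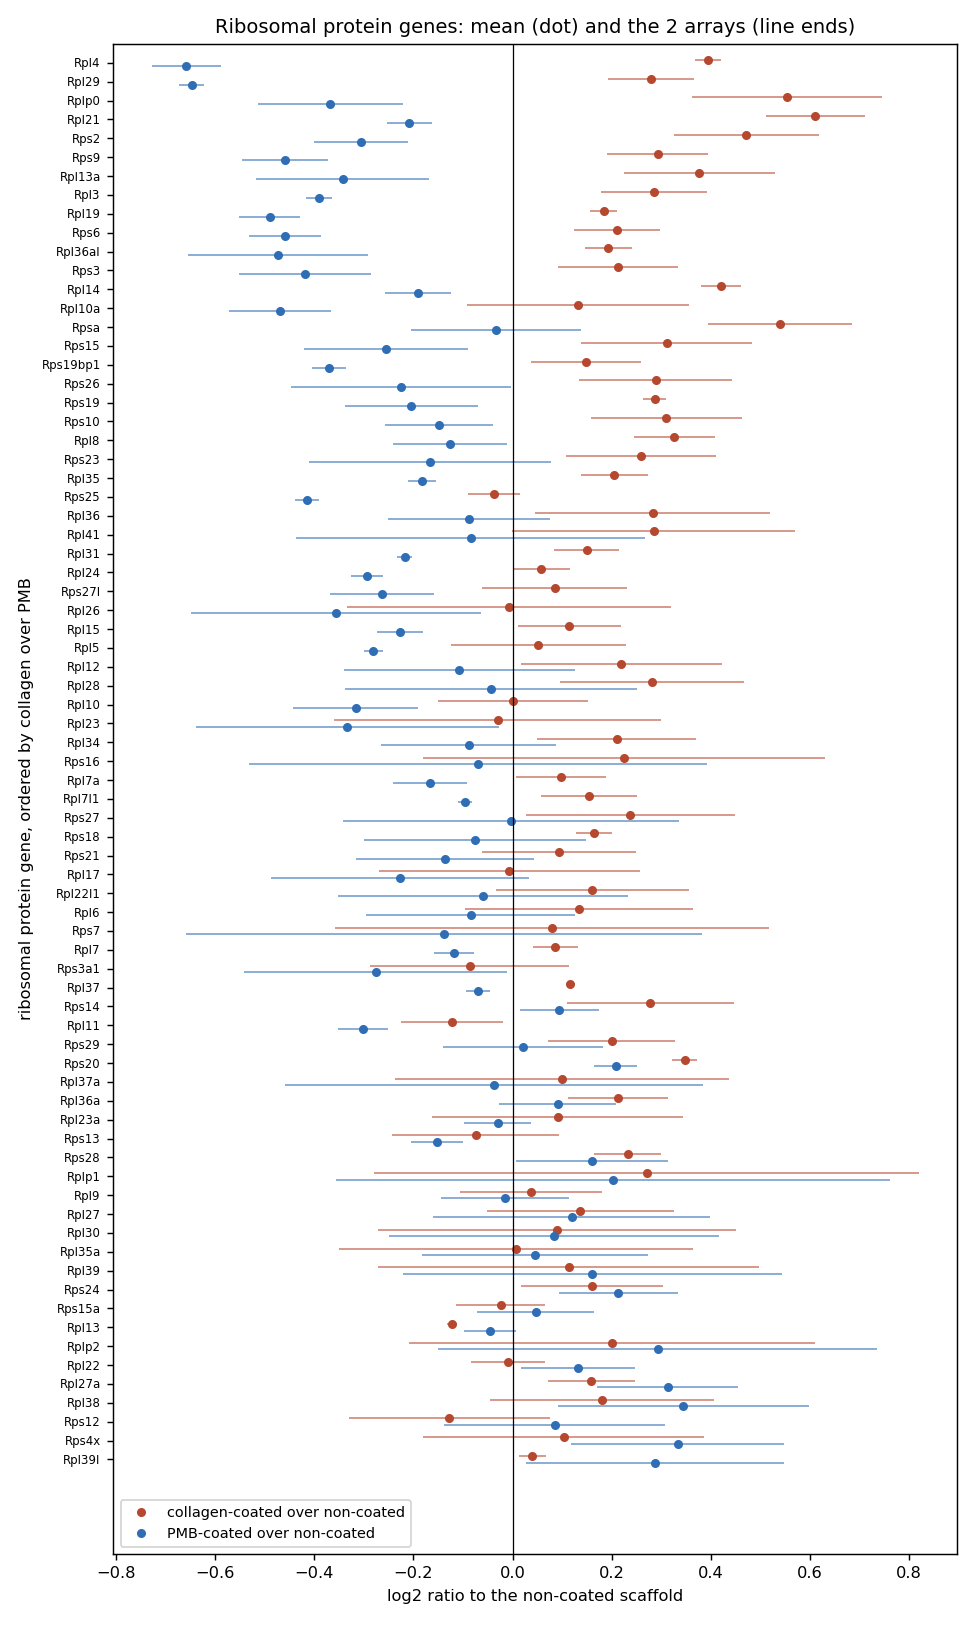
Each of the 75 genes has a row, ordered from the highest collagen over PMB ratio at the top (Rpl4, 1.05) to the lowest at the bottom (Rpl39l, -0.25), and the horizontal axis is the log2 ratio to the non-coated scaffold. Dots are the mean of the 2 arrays and line ends the single arrays, in red for collagen and in blue for PMB. The red and blue lines lie apart in most upper rows and overlap in the lower rows.

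Large-subunit proteins held the widest differences between the coatings. Rpl4, a core protein with a loop in the exit tunnel, had log2 ratios of 0.420 and 0.367 on the collagen arrays and of -0.728 and -0.588 on the PMB arrays. Its collagen over PMB ratio was 1.05 ± 0.14, or 2.07-fold, and the arrays of the 2 coatings did not overlap. On replicate 2 alone it was 0.955, short of 2-fold. Rpl29, a small surface protein, had means over 4 entries of 0.367 and 0.193 with collagen and of -0.673 and -0.622 with PMB. Its ratio of 0.93 ± 0.16 came mostly from the PMB side. Rpl21 was the highest member with collagen, at 0.511 and 0.711, and had -0.254 and -0.163 with PMB, which gave 0.82 ± 0.077. Rpl14 showed 0.381 and 0.460 with collagen and -0.258 and -0.125 with PMB, and Rpl19 showed 0.210 and 0.157 against -0.552 and -0.428. These genes had all 4 arrays on the side of the group median.

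Some other large-subunit genes ran the other way or close to 0. Rpl38, a protein known from mouse work for a role in the translation of Hox mRNAs, was the highest member with PMB, at 0.597 and 0.091, and had 0.407 and -0.046 with collagen. Rpl27a had 0.170 and 0.455 with PMB and 0.071 and 0.247 with collagen, so that it lay above 0 on every array. Rpl22, which also binds RNA outside the ribosome, had -0.084 and 0.066 with collagen and 0.016 and 0.246 with PMB. The collagen over PMB ratios of the 3 genes were -0.16 ± 0.037, -0.15 ± 0.077 and -0.14 ± 0.057, all short of the lower threshold. The 2 entries of Rpl22 disagreed, at 0.20 and -0.48. Rpl10a was among the lowest genes with PMB, at -0.367 and -0.572, while its collagen arrays had opposite signs at 0.355 and -0.092. Its collagen over PMB ratio of 0.60 ± 0.17 went with the group and passed the lower threshold. Over the 43 large-subunit genes, the medians were 0.14 for collagen, -0.12 for PMB and 0.30 for collagen over PMB, with 20 genes higher by 25% or more in the last.

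The 10 proteins listed around the exit tunnel, where the new chain leaves the ribosome, had medians of 0.11, -0.13 and 0.20, with 4 genes higher by 25% or more in collagen over PMB. Rpl4 was not on this list. The listed genes ranged from Rpl38, at -0.16 ± 0.037, to Rpl19, at 0.67 ± 0.12, and so lay toward both ends of the order.

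The P stalk recruits the elongation factors to the large subunit, and its 3 proteins did not share a pattern. Rplp0, the base of the stalk, had means over 12 entries of 0.362 and 0.746 with collagen and of -0.514 and -0.222 with PMB, a collagen over PMB ratio of 0.92 ± 0.065. Rplp1 and Rplp2, which dimerize on it, were at 0.07 ± 0.013 and -0.09 ± 0.048. Their single arrays followed the dye more than the coating. Rplp1 had 0.820 and -0.279 with collagen and 0.762 and -0.356 with PMB. Rplp2 had 0.610 and -0.208 with collagen and 0.736 and -0.150 with PMB. Both were high on each array with the coated sample in Cy5 and low on each array with it in Cy3, so their means against the non-coated scaffold come from arrays of opposite sign.

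In the small subunit, Rps2, a protein near the mRNA entry channel, had 0.618 and 0.325 with collagen and -0.211 and -0.401 with PMB, and a collagen over PMB ratio of 0.78 ± 0.073. Rps9, whose yeast relative takes part in decoding accuracy, had 0.191 and 0.395 against -0.545 and -0.373, a ratio of 0.75 ± 0.023. Rps6, the protein phosphorylated by the S6 kinases below mTOR, had 0.297 and 0.123 against -0.387 and -0.531, a ratio of 0.67 ± 0.021. In these 3 genes the collagen and PMB arrays did not overlap, and the 2 replicates gave nearly the same ratio. Another Rps6 entry, left out because PMB replicate 2 was empty, had -0.19 and -0.086 with collagen and -0.401 on PMB replicate 1. Rps4x had 0.386 and -0.180 with collagen and 0.548 and 0.118 with PMB, and Rps12 had 0.075 and -0.330 against 0.307 and -0.138. Their ratios were -0.23 ± 0.096 and -0.21 ± 0.028, the lowest of the subunit. Over the 26 small-subunit genes the medians were 0.22, -0.14 and 0.24, with 11 genes higher by 25% or more in collagen over PMB.

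Of the 18 ribosomal protein genes on the list of those mutated in human Diamond-Blackfan anaemia, a failure of red cell formation, 16 were measured. Their medians of 0.16, -0.17 and 0.29 were close to those of all members, and 8 were higher by 25% or more in collagen over PMB. Rps19, the gene most often mutated in that disease, had 0.264 and 0.310 with collagen and -0.338 and -0.070 with PMB, a ratio of 0.49 ± 0.16.

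The name rule also took in 6 measured paralogs and like-named genes out of 12 listed, with medians of 0.15, -0.18 and 0.30. Rpl36al, a close copy of Rpl36a, had 0.146 and 0.240 with collagen and -0.654 and -0.291 with PMB, a ratio of 0.67 ± 0.19. Rps27l, a p53 target, was at 0.35 ± 0.059, and Rpl22l1, the paralog of Rpl22, at 0.22 ± 0.14. Rpl39l, a copy of Rpl39 known from the testis, was the lowest of all members at -0.25 ± 0.41, an SD larger than its value. Rpl7l1 and Rps19bp1, which act in ribosome assembly or bind Rps19 and are not standard subunit proteins, were at 0.25 ± 0.16 and 0.52 ± 0.11. Without these 6 genes, the medians of the 69 standard members were 0.18, -0.13 and 0.29.

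Of the 77 members, 2 lacked a value on some array. Rpl32 had 0.230 and 0.106 with collagen and -0.451 on PMB replicate 1, with replicate 2 empty. Rpl3l, the paralog that replaces Rpl3 in skeletal and heart muscle, had -2.58 on collagen replicate 2, with replicate 1 empty, and -1.22 and -0.74 with PMB. Rpl3l was thus below the lowest measured member on each array with a value, by little on PMB replicate 2, where that member had -0.659, and Rpl32 had the signs of the group median.

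The 2 dye orientations lay farther apart in ribosomal protein genes than in all genes. The median SD of the 2 arrays was 0.207 for collagen and 0.189 for PMB in the members, against 0.133 and 0.139 over all genes. In collagen over PMB, where a dye offset common to both coatings is subtracted, it was 0.077 in the members against 0.107. Replicate 1 exceeded replicate 2 in 50 of 75 members for collagen and in 42 for PMB, where 4862 and 4776 of all 11842 genes did so. The member medians were 0.30 and 0.067 on its 2 arrays and -0.11 and -0.21 on those of PMB. For collagen over PMB the same medians were 0.30 and 0.28. Rps7 and Rps16 behaved like Rplp1, with 0.517 and -0.358 for Rps7 and 0.631 and -0.181 for Rps16 on the collagen arrays, and their collagen over PMB ratios were 0.22 ± 0.12 and 0.29 ± 0.080. The counts against the non-coated scaffold moved with the array used. Genes higher by 25% or more with collagen numbered 32 on replicate 1 alone and 15 on replicate 2 alone, and genes lower with PMB numbered 17 and 27. In collagen over PMB the same count was 34 and 32. Shares of all genes were not counted on single arrays, so these counts show only how the members moved between arrays.

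**Figure D3:**
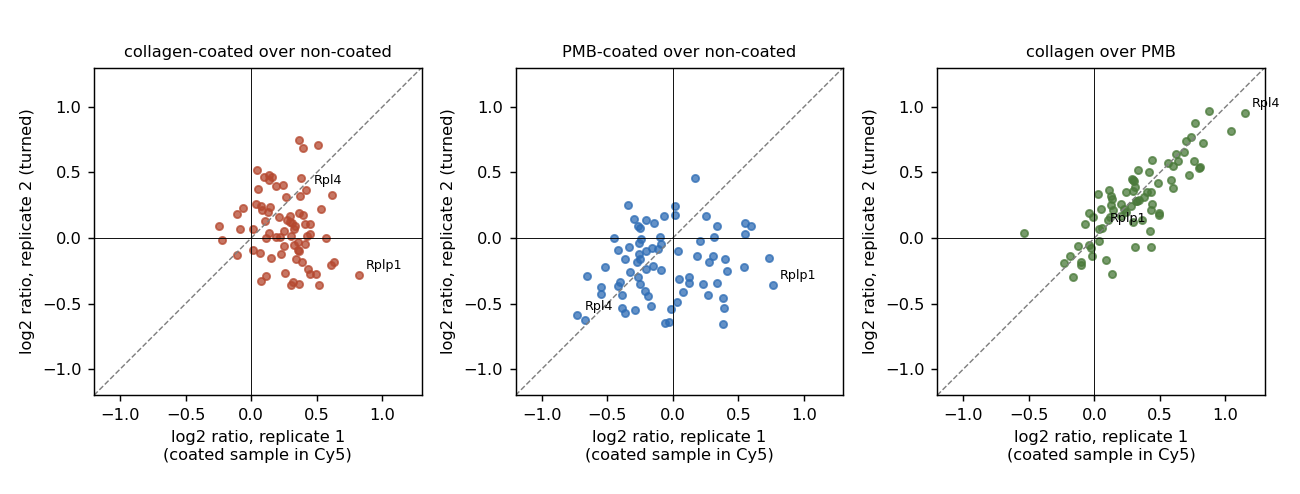
The log2 ratio of replicate 2, turned for the dye swap (vertical axis), is plotted against that of replicate 1 (horizontal axis) for the 75 genes, in panels for collagen, PMB and collagen over PMB, and the dashed line marks equal values. The points scatter widely in the first 2 panels, with Rplp1 far below the line, and follow the line in the third, where Rpl4 lies farthest right.

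The ratios had been normalized as a function of spot brightness, and the table holds no intensities, so the members could not be set against other genes of like brightness. As a partial view, 32 of 37 abundant mRNAs outside the ribosome, listed after the ribosomal protein values had been seen, had medians of -0.03, -0.19 and 0.21, with 11 genes higher by 25% or more and 5 lower in collagen over PMB. They ran from Gapdh, a glycolytic enzyme, at -0.82 ± 0.012 to Tuba1b, an alpha-tubulin, at 1.14 ± 0.13. The collagen over PMB median of this list lay nearer to that of the members than to that of all genes, whereas its spread to both sides was wider. The part of brightness in the result was not tested.

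Of the 145 entries of the members on the array, 131 (90.3%) had 4 values, against 51.6% of all 43377 entries. The 75 genes comprised 40 with 1 such entry and 35 with more, and entries of a gene did not always agree. Rpsa, the laminin receptor protein of the small subunit, had entry means of 0.67 and 0.41 with collagen but of -0.55 and 0.48 with PMB, so that its collagen over PMB ratio was 1.22 by one entry and -0.072 by the other. For Rps18 the entries differed by 0.66 with PMB, at -0.40 and 0.25. The SD of the 2 arrays does not hold this spread, and the mean of such genes hides it.

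For Rplp0, 10 entries carried the same sequence record. Their collagen means ran from 0.48 to 0.69 and their PMB means from -0.60 to -0.17, with SDs of 0.062 and 0.13. Their collagen over PMB ratios ran from 0.73 to 1.28, so all repeats gave the same sign at differing size. The other 2 entries, annotated to a RefSeq mRNA, gave 0.37 and 0.45, so the place of Rplp0 near the top of the order came from the repeated record.

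The lowest members with collagen were Rps12 (-0.13), Rpl13 (-0.12), Rpl11 (-0.12), Rps3a1 (-0.086), Rps13 (-0.075) and Rps25 (-0.037). In 5 of these 6 genes an entry not annotated to a RefSeq mRNA was the low one. It had -0.47 for Rps13, where the other entry had 0.32, and -0.52 for Rpl13, where the others had 0.064 and 0.091. For Rps24 the entries ran from -0.10 to 0.60, both ends from such records. Over all 106 entries annotated to a RefSeq mRNA, the medians were 0.18, -0.15 and 0.33. The 15 others, without the repeated Rplp0 record, had 0.037, -0.011 and 0.16. Ribosomal protein genes have many processed pseudogenes of like sequence, and what an entry outside RefSeq mRNAs measures is uncertain.

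**Figure D4:**
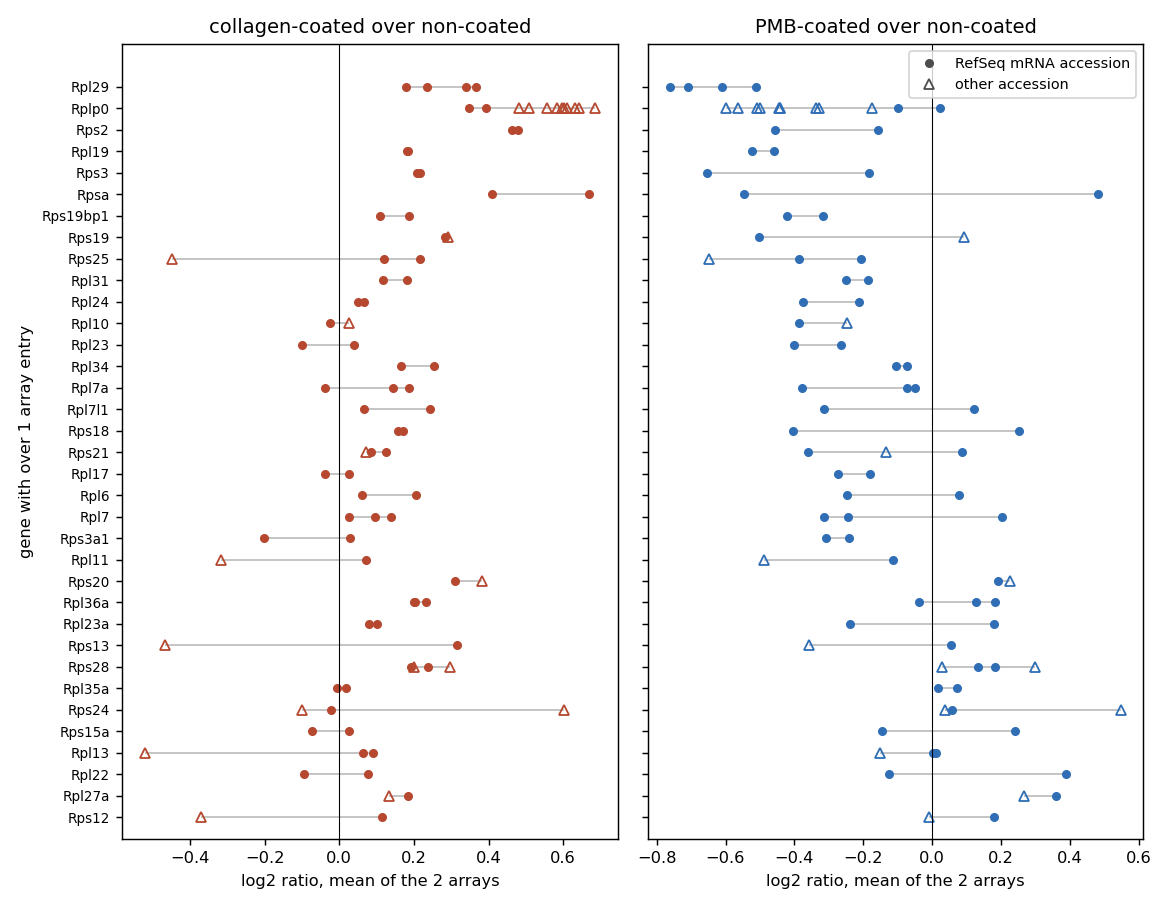
The 35 genes with more than 1 entry each have a row, and each mark is the mean log2 ratio of an entry over the 2 arrays (horizontal axis), for collagen on the left and PMB on the right. Filled circles are entries annotated to a RefSeq mRNA and open triangles are others. Most of the lowest marks with collagen are triangles, and the entries of Rpsa lie 1.03 apart with PMB.

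Factors of ribosome assembly had medians near those of the ribosomal proteins. The 30 measured of 32 biogenesis factors had medians of 0.15, -0.10 and 0.31, with 14 higher by 25% or more and 1 lower in collagen over PMB. Among them Nhp2 and Gar1, partners in the particle that makes pseudouridine in ribosomal RNA, were at 0.85 ± 0.031 and 0.78 ± 0.045. Ltv1, an export factor of the small subunit, was lowest at -0.42 ± 0.32. The 10 genes of RNA polymerase I, which makes ribosomal RNA, had medians of 0.18, 0.04 and 0.25, so that the PMB median was not below 0, with 3 higher and none lower in collagen over PMB. Taf1b, a promoter-binding factor of that polymerase, was highest at 0.89 ± 0.12 and Polr1a, its largest subunit, lowest at -0.22 ± 0.0018.

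The medians of other mRNAs with a TOP tract had the same signs as those of the ribosomal protein genes. The 15 measured of 16 had medians of 0.15, -0.10 and 0.35, but with PMB only 4 were below 0 on both arrays and 10 had mixed signs. In collagen over PMB, 8 were higher by 25% or more and none was lower. Eef2, which moves the ribosome along the mRNA, was at 0.73 ± 0.009, and Eif3f, a subunit of initiation factor eIF3, at 0.69 ± 0.019. Pabpc1, the poly(A)-binding protein, and Vim, vimentin, were at -0.19 ± 0.029 and -0.05 ± 0.21. Of the initiation factors 26 of 30 were measured, with medians of 0.07, -0.10 and 0.21, and 9 were higher and none lower, led by Eif3i at 0.99 ± 0.026 and Eif3k at 0.94 ± 0.21. The 7 genes of elongation factors and their kinase, Eef2k, had a median of 0.21 in collagen over PMB, with 3 higher and 2 lower. Eef2k was at -0.35 ± 0.10, and the list held 1 outlying member, Eef1a2, the isoform of muscle and neurons. It had -2.32 and -2.27 with collagen and -1.55 and -1.26 with PMB, whereas Eef1a1, the form of most cells, had a collagen over PMB ratio of 0.53 ± 0.15.

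Genes that signal to the ribosome did not share these values. The 15 measured of 16 genes of mTOR signalling and Myc had medians of 0.03, 0.00 and -0.02, with 1 higher and 2 lower in collagen over PMB. Mtor itself was at 0.42 ± 0.12, and Rptor, its partner in the complex that acts on TOP mRNAs, at -0.42 ± 0.10. These are mRNA levels and do not measure kinase activity. Apart from these, 4 of 6 listed genes of ribosome-bound proteins that the name rule left out were measured, with a median of 0.07. By their means 3 were above 0 and 1 was below it. The lower one was Fau, which encodes a protein of the small subunit and so is a ribosomal protein gene outside the rule, at -0.12 ± 0.30. Naca was at 0.14 ± 0.11.

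The ribosome of mitochondria, which is built from other proteins, gave close to the same picture. Its 78 measured genes had medians of 0.10, -0.20 and 0.27. In collagen over PMB 60 were above 0 on both arrays and 5 below, and 33 were higher by 25% or more and 2 lower. Mrps18b and Mrps11, proteins of its small subunit, passed 2-fold at 1.13 ± 0.061 and 1.09 ± 0.16. Values of this size were thus also seen in the genes of another ribosome.

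**Figure D5:**
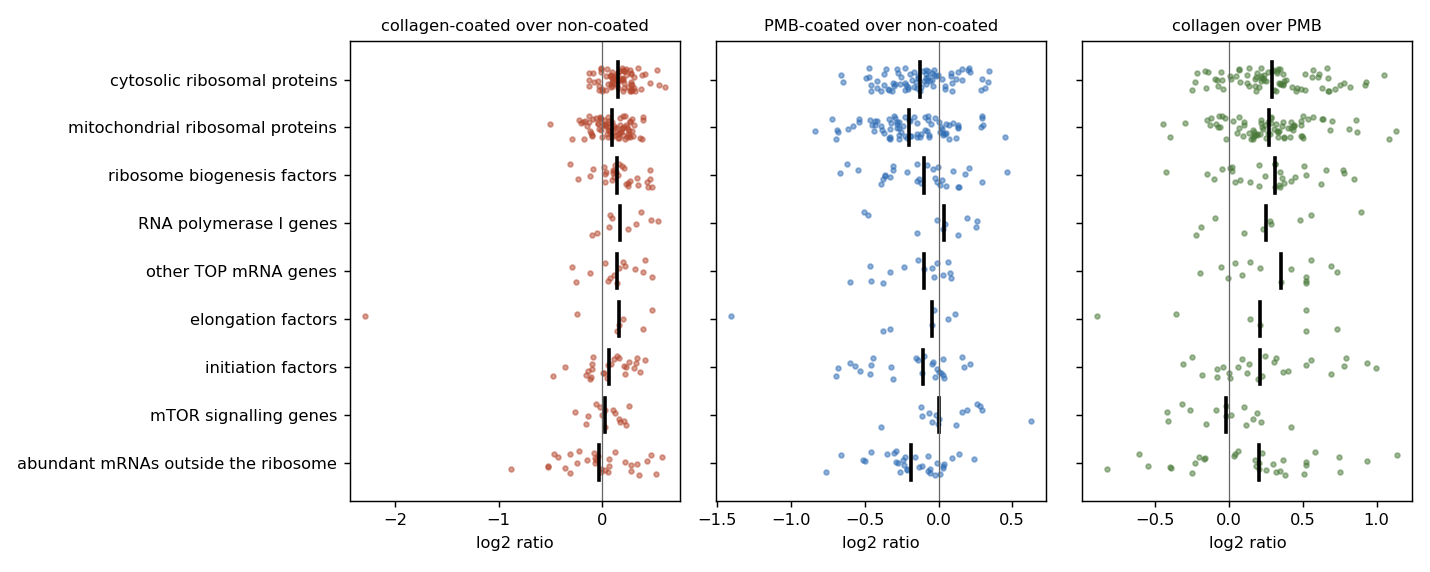
Each dot is a gene's log2 ratio (horizontal axis, mean of the 2 arrays) and each black bar the median of a gene list, in panels for collagen, PMB and collagen over PMB, whose axes differ in range. The lists of ribosomal proteins, mitochondrial ribosomal proteins, biogenesis factors and other TOP mRNA genes have medians from 0.27 to 0.35 in collagen over PMB, and the mTOR signalling genes have -0.02.

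In collagen over PMB, the medians of several cell type marker lists lay farther from 0 than that of the ribosomal protein genes, and those of fibroblasts and macrophages did not. Single markers of these cells were spread more widely than the members, with an SD over genes of 0.485 for fibroblasts and 0.561 for macrophages, against 0.292. By the 25% threshold 0 fibroblast markers were higher and 4 lower, and 4 macrophage markers were higher and 4 lower. In such tissue, fewer cells of a type and less RNA per cell cannot be told apart. Medians of collagen over PMB were 1.52 for 11 of 14 neutrophil markers, 1.99 for 4 of 9 T cell markers, 1.19 for 5 of 11 keratinocyte markers and 0.51 for 10 endothelial markers. They were -0.95 for 24 of 25 skeletal muscle genes, -1.87 for 9 of 10 adipocyte markers, -0.26 for 10 fibroblast markers and -0.10 for 12 of 14 macrophage markers. Against the non-coated scaffold, muscle genes had medians of -2.70 with collagen and -1.82 with PMB, in the same direction for both coatings, whereas the ribosomal protein medians had opposite signs. Adipocyte markers had -0.72 with collagen and 1.15 with PMB, and T cell markers 1.81 and -0.33. The part of the cell mixture in the ribosomal protein values was not tested.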

How the data were processed

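The authors quantified spots of two-colour whole-mouse-genome oligo arrays with GenePix Pro, applied LOWESS to the dyes, and the deposited values are log2 of Cy5 over Cy3. The handling of the 3 scans and the reason for empty spots are not given in the sources used here. Replicate 2 was turned in sign because its coated sample carried Cy3. Its deposited values correlated with those of replicate 1 at -0.79 for collagen and -0.66 for PMB over 22380 entries. Nothing else was normalized. Gene symbols came from the platform annotation, 33651 entries had 1 symbol, and entries with 4 values were averaged per gene. The number of arrays limits the precision. Comparisons were descriptive, with counts past 2-fold or 25% (same sign on both arrays) set beside those of all 11842 genes. Genes named are the 6 highest and 6 lowest members of each of the 3 comparisons, every member past 2-fold, the P stalk genes, the paralogs and, for each coating, the 5 members whose entries lay widest apart. Of other lists, those at the ends of a comparison are named. Rpl32, Rpl3l, Rps7 and Rps16 were named after their values were seen. The members and lists were chosen with earlier results of these data known. Counting was tested on simulated data. Alternatives changed the entries used, the scaling and the arrays. limma 3.58.1 in R 4.3.3 scaled the arrays, and the rest ran in Python 3.11.15 (numpy 2.4.6, pandas 2.3.3).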

Additional observations from a re-analysis of the deposited data

Results flagged for a closer look

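For 14 of the genes named, every array of the collagen coating lay above 0 and every array of the PMB coating below 0, with the non-coated extract shared and 1 sample per coating, so the difference was not tested. The genes named were picked in part from the ends of these same comparisons, so this count does not describe the family. Over all members it was 26 of 75 (34.7%), against 12.4% of all genes. These signs held for the mean over a gene's entries, and some entries went otherwise. Single entries had collagen over PMB ratios of 0.38, 0.41 and -0.18 for Rpl7 and of 0.20 and 0.79 for Rps19. An entry of Rpl7l1 had a PMB mean of 0.12, where the other had -0.31. An entry of Rps6, left out of the mean because PMB replicate 2 was empty, had -0.19 and -0.086 with collagen. The collagen over PMB log2 ratios were 1.05 for Rpl4, 0.93 for Rpl29, 0.92 for Rplp0, 0.82 for Rpl21, 0.78 for Rps2, 0.75 for Rps9, 0.67 for Rpl19, 0.67 for Rps6, 0.67 for Rpl36al, 0.61 for Rpl14, 0.52 for Rps19bp1, 0.49 for Rps19, 0.25 for Rpl7l1 and 0.205 for Rpl7.

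The list medians had opposite signs on the arrays of the coatings in the same way. The collagen over PMB medians were 0.29 for the ribosomal protein genes and for the standard ones alone, 0.30 for the large subunit, 0.24 for the small subunit, 0.30 for the paralogs, 0.20 for the exit tunnel proteins, 0.29 for the Diamond-Blackfan genes, 0.27 for the mitochondrial ribosomal proteins, 0.35 for the other TOP mRNA genes, 0.21 for the initiation factors and 0.31 for the biogenesis factors. T cell markers (1.99, collagen above) and adipocyte markers (-1.87, PMB above) were split in this way too, and none of these differences was tested.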

How the results depend on the processing

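No paired analysis was possible because the 2 arrays of a coating are a dye swap of the same extracts. The 3 medians kept their sign in every alternative run. The collagen over PMB median was 0.32 with the entry of smallest dye-swap difference per gene, 0.33 after scaling the arrays to equal spread and 0.32 with entries weighted equally. Counts by the 25% threshold changed most. The first of these gave 1 lower gene with collagen and 1 in collagen over PMB, and turned the collagen over PMB ratio of Rpsa to -0.072. Array medians set to 0 left 0 higher genes with PMB. Scaling gave 14 higher genes with collagen and 2 past 2-fold in collagen over PMB. Counted as entries, of 131, 24 were higher and 4 lower with collagen, 6 and 36 with PMB, and 65 and 4 in collagen over PMB, where 8 passed 2-fold. These entry counts hold all 10 repeats of 1 Rplp0 record, whose collagen over PMB ratios ran from 0.73 to 1.28. Most entries past 2-fold were such repeats, and the others belonged to Rpl4 and Rpsa. With each array required to pass 2-fold, 0 genes were left in collagen over PMB. On single arrays, without replicate 1 or replicate 2, the higher genes with collagen numbered 15 to 32 and the lower ones 0 to 5. The PMB median ran from -0.21 to -0.11, the genes higher with PMB from 1 to 13 and those lower from 17 to 27. In collagen over PMB, genes higher by 2-fold ran from 0 to 2, and genes lower by 25% or more from 0 to 1. Shares of all genes on single arrays were not counted beside these. The causes were not tested. Of 792 values of single genes under the alternatives, 723 moved by less than 1 SD of the 2 arrays, 68 moved by more and 1 was the reversal of Rpsa. A value on 1 array always lies within 1 SD of the mean of the 2, so the runs on single arrays could not count as moved. Reversals were counted only for genes past the 25% threshold with the same sign on both arrays. Other sign changes were left out, such as Rplp1 with collagen, with a mean of 0.27 but -0.279 on replicate 2 alone. RefSeq mRNA entries alone, an alternative added after the data were seen, left every count within 1.5 times. With 1 extract per scaffold, differences between mice cannot be judged.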
